A study of Mus musculus with 16 samples.

Results

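The 37 genes described here encode proteins that build and maintain the sarcomere outside its contractile filament proteins: thick-filament and M-band proteins, Z-disc proteins, proteins that set or protect the thin filament, and chaperones and turnover factors. They were chosen by name, leaving out every myosin, actin, troponin and tropomyosin. All 37 were found among the 35613 genes of the deposited tables and all 37 entered the test of 15533 genes. Estimated counts were summed over the transcripts of each gene. The role groups used below hold 7 thick-filament and M-band genes, 17 Z-disc genes, 7 thin-filament genes and 6 assembly and turnover genes.

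The sarcomere is the repeating contractile unit of striated muscle. Thin filaments are anchored at the Z-disc by alpha-actinin, thick filaments are linked at the M-band by myomesins, and titin spans from one to the other. Myogenic progenitors are proliferating cells that hold few sarcomeres, and these genes are switched on broadly as myocytes withdraw from the cell cycle and fuse into myotubes.

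The study asked what small molecules do to primary mouse myoblasts of the Pax7-nGFP genotype, in which GFP marks expression of Pax7, a transcription factor of muscle stem cells. The RNA-seq libraries came from 5 groups of 3: GFP+ MPC, bulk MPC, differentiated myoblasts, GFP+ myoblasts and bulk myoblasts. All 15 came from parental lines of 16-week-old male animals. The labels do not spell out MPC. MPC were grown as myoblasts for 2 to 3 passages and then for 5 to 6 passages with forskolin at 5 µM, Repsox at 5 µM and CHIR9901 at 3 µM, in a medium of its own. Forskolin activates adenylyl cyclase and Repsox inhibits the TGF-beta type I receptor. Differentiated myoblasts spent 3 days in medium with low horse serum at passage 4 to 5, GFP+ myoblasts were at passage 5 to 6, and bulk myoblasts at passage 3. Replicates are labelled biological, and same-numbered libraries of the 5 groups share a leading number in their library names. The labels do not say that this number is the parental line, so calls that a replicate block ended are given with its value. Compounds, medium and passage number cannot be told apart between MPC and myoblasts. GFP+ cells were sorted, and their RNA was extracted with another kit than that of unsorted cells. Sorting and kit therefore cannot be told apart either. GFP+ and bulk myoblasts also differ in passage number, which cannot be told apart from sorting or kit. A further library of GFP+ MPC from high-passage myoblasts has no replicate and enters no comparison.

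Library totals ran between 19300307 and 29127963 estimated counts. Pax7 averaged 766 ± 148 CPM (counts scaled to library size) in GFP+ MPC, 87.0 ± 43.8 in bulk MPC, 45.5 ± 19.8 in differentiated myoblasts, 902 ± 92.2 in GFP+ myoblasts and 579 ± 69.8 in bulk myoblasts (SD, n = 3 each). Ckm, the muscle creatine kinase of differentiated cells, averaged 12.3 ± 8.77, 836 ± 31.6, 770 ± 120, 0.522 ± 0.104 and 88.5 ± 52.5 CPM in the same order of groups. In these bulk libraries, fewer cells of a type and less RNA per cell cannot be told apart. Of the cardiac markers, Nppa and Myl7 were at 0 in every group.

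The 37 genes together took 0.147, 0.285 and 0.158% of all estimated counts in GFP+ MPC, 3.32, 3.11 and 3.37% in bulk MPC, 3.54, 3.31 and 3.45% in differentiated myoblasts, 0.208, 0.203 and 0.16% in GFP+ myoblasts, and 1.53, 1.05 and 1.47% in bulk myoblasts. Unsorted MPC and differentiated myoblasts lay side by side, and both sorted groups lay far below every unsorted library. On the TPM scale, on which abundance is corrected for transcript length, the most abundant member also differed. Pdlim7, a LIM-domain scaffold found outside muscle as well, held 18.5, 8.75 and 17.9% of the members' summed TPM in GFP+ MPC and led in replicates 1 and 3, while in replicate 2 Actn3 led with 18.8%. In bulk MPC Actn2, the sarcomeric alpha-actinin, led with 17.7, 16.3 and 17.6%. In differentiated myoblasts Mybph, myosin-binding protein H, led with 17.5, 18.0 and 17.5%. The plot of 8 members by library sets the sorted groups beside the unsorted ones.

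**Figure D1:**
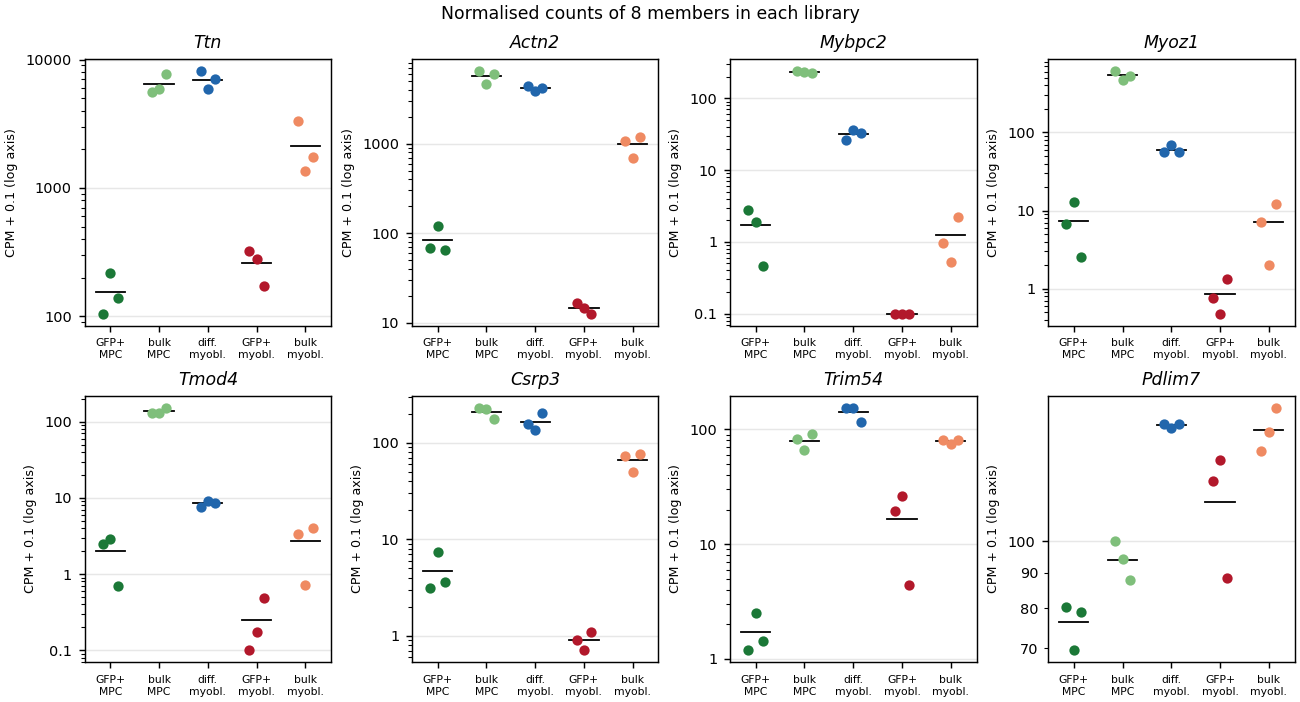
Normalised counts (CPM + 0.1, log axis) of 8 genes in each library of GFP+ MPC, bulk MPC, differentiated myoblasts, GFP+ myoblasts and bulk myoblasts (points, 1 per library; bars, group means). Actn2 lay between 64.3 and 121 CPM in GFP+ MPC and between 4680 and 6460 CPM in bulk MPC, and Mybpc2 had no count in GFP+ myoblasts.

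The first comparison asked how unsorted MPC cultures differ from unsorted myoblast cultures. Sarcomere genes were higher in bulk MPC almost throughout: 32 of the 37 rose and 1 fell (edgeR's quasi-likelihood test, Benjamini-Hochberg adjusted p under 0.05 over all tested genes). Of all tested genes, 28.4% were called higher and 30.1% lower. The members' median log2 fold change was 1.58, against -0.01 for all tested genes. All 7 thick-filament and M-band genes rose, 16 of 17 Z-disc genes rose, all 7 thin-filament genes rose, and 2 of 6 assembly and turnover genes did. Smooth muscle and pericyte markers summed to 483 to 597 CPM in bulk MPC and 1220 to 1610 CPM in bulk myoblasts, and fibroblast markers to 75.3 to 846 CPM in bulk MPC and 648 to 832 CPM in bulk myoblasts. Both lists were split. Of 7 smooth muscle and pericyte markers tested, Rgs5 (-4.43 ± 0.93) and Acta2 (-2.52 ± 0.38) were called lower, and Mcam (0.90 ± 0.24) and Smtn (0.80 ± 0.18) higher. Of 6 fibroblast markers tested, 2 were called higher and 1 lower (edgeR). The part of both lists in the members' difference was not tested.

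The second comparison set the 3-day differentiated myoblasts against the same bulk myoblasts. In differentiated myoblasts 33 members rose and none fell (edgeR), where 25.6% of all tested genes were called higher and 28.6% lower. The median log2 fold change was 1.67, against -0.03 over all tested genes. Since all 37 log2 fold changes were above 0, none was lower at an unadjusted p under 0.05, and DESeq2 also called 0 lower. The 4 genes without a call, Pdlim7, Trim54, Trim55 and Smyd1, had log2 fold changes of 0.03, 0.84, 0.76 and 0.37. Fibroblast markers, of which Lum was at 0 in both groups, summed to 32.1 to 99.8 CPM in differentiated myoblasts and 648 to 832 CPM in bulk myoblasts, with no overlap, and smooth muscle and pericyte markers to 1190 to 1330 CPM in differentiated myoblasts and 1220 to 1610 CPM in bulk myoblasts. Of 6 fibroblast markers tested, 2 were called lower and 4 had no call. Of 7 smooth muscle and pericyte markers tested, 1 was called higher and 3 lower. The part of both lists in the members' difference was not tested. These 2 comparisons share their bulk myoblast libraries. Bulk myoblast replicate 2 was the lowest of its group for 35 of the 37 genes, and leaving it out kept 30 of the members higher in bulk MPC and 31 higher in differentiated myoblasts.

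Several members carry matches to motifs of muscle transcription factors in the 250 bases before their RefSeq start (GRCm38.p6), and the promoters of 4 of them are shown here to let the upstream sequence of 3 genes that rose together be set beside that of Pdlim7, the 1 gene that fell in bulk MPC. Of the 37 genes, 27 had a promoter in the table, 32 promoters in all. Capitals mark CAGCTG (an E-box of the form bound by myogenic bHLH factors), CATTCC (the M-CAT motif) and the MEF2 and CArG motifs, on either strand.
Mybph, chr1:134193198-134193447, plus strand: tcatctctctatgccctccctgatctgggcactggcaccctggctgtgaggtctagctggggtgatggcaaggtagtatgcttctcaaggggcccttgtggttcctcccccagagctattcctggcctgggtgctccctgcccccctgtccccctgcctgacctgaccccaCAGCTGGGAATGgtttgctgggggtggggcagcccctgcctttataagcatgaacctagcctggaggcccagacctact
Klhl41, chr2:69669870-69670119, plus strand: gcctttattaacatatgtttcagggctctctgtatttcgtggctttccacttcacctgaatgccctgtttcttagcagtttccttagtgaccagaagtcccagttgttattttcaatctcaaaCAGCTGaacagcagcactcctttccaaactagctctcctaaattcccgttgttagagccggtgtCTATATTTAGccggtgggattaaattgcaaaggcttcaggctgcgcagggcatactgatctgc
Myoz2, chr3:123034988-123035237, minus strand: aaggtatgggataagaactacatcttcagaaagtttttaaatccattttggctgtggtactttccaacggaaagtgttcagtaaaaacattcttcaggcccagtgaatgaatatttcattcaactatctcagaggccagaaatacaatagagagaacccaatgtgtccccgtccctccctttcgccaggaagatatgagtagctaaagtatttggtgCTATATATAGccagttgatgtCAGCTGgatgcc
Pdlim7, chr13:55513447-55513696, minus strand: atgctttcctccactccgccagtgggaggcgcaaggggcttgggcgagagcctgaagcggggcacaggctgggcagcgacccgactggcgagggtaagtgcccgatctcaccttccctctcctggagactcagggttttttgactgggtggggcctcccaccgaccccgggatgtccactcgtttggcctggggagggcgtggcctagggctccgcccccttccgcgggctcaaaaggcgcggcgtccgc

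CAGCTG was in 10 of the 32 member promoters (31.2%), against 13.0% of all 32851 promoters in the table. The MEF2 motif was in 7 (21.9%, against 2.92%), CATTCC in 7 (21.9%, against 12.6%) and the CArG motif in 3 (9.38%, against 1.47%). The overlapping Ldb3 windows both hold the same CArG site, which is thus counted again, and the remaining window is of Myom1. The general E-box CANNTG, which includes CAGCTG, was in 24 (75.0%, against 66.2%). These are matches of letters and not measured binding. The Pdlim7 window holds none of the marked motifs, and neither do those of Tmod4, Lmod2, Csrp3, Actn2, Unc45b and Pdlim5, which rose in bulk MPC. The window of Trim54, which had no call there, holds CAGCTG and CATTCC.

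Among thick-filament and M-band genes, titin stood at high levels in both unsorted cultures. Ttn, the spring and ruler that runs from Z-disc to M-band, had 5580, 5930 and 7700 CPM in bulk MPC, 8110, 5860 and 6990 CPM in differentiated myoblasts, and 3330, 1360 and 1730 CPM in bulk myoblasts. Every library of bulk MPC and of differentiated myoblasts lay above every bulk myoblast library, with log2 fold changes over bulk myoblasts of 1.58 ± 0.35 (adjusted p = 0.00161, edgeR) for bulk MPC and 1.71 ± 0.35 (adjusted p = 0.00109, edgeR) for differentiated myoblasts (± SE here and below). The myomesins Myom1, Myom2 and Myom3, which cross-link thick filaments at the M-band, rose by 1.57, 1.79 and 1.15 in bulk MPC and by 1.20, 1.89 and 1.18 in differentiated myoblasts on the log2 scale.

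Mybpc2, the fast-type myosin-binding protein C, had the largest log2 fold change of the 37 genes in both comparisons. It had 239, 230 and 223 CPM in bulk MPC, 26.3, 36.4 and 32.7 CPM in differentiated myoblasts, and 0.871, 0.431 and 2.11 CPM in bulk myoblasts. The 3 groups did not overlap, and the log2 fold change over bulk myoblasts was 7.61 ± 0.57 in bulk MPC and 4.76 ± 0.53 in differentiated myoblasts (adjusted p = 1.42e-06 and 2.36e-05, edgeR). Without bulk myoblast replicate 3 these values were 8.39 and 5.54. Mybpc1, the slow-type paralog, rose by 3.04 ± 0.36 in bulk MPC and by 2.15 ± 0.35 in differentiated myoblasts. Mybph went the other way between the 2 cultures: it had 1860, 1510 and 2170 CPM in bulk MPC, 3800, 3730 and 3670 CPM in differentiated myoblasts, and 879, 673 and 1200 CPM in bulk myoblasts.

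At the Z-disc, the alpha-actinins that cross-link thin filaments rose in both cultures. Actn2 had 6460, 4680 and 5980 CPM in bulk MPC, 4400, 3840 and 4220 CPM in differentiated myoblasts, and 1060, 684 and 1200 CPM in bulk myoblasts. Its log2 fold change over bulk myoblasts was 2.54 ± 0.26 in bulk MPC (adjusted p = 4.28e-06, edgeR) and 2.08 ± 0.26 in differentiated myoblasts (adjusted p = 2.19e-05, edgeR). Actn3, the alpha-actinin of fast fibres, rose by 2.20 ± 0.40 and 1.31 ± 0.39. The Actn3 call in differentiated myoblasts was lost without bulk myoblast replicate 2 (log2 fold change 1.16, adjusted p = 0.0524, edgeR).

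The calsarcins Myoz1, Myoz2 and Myoz3, Z-disc proteins that bind alpha-actinin and calcineurin, rose unequally. Myoz1, the form of fast muscle, had 609, 468 and 535 CPM in bulk MPC, 55.6, 68.8 and 56.2 CPM in differentiated myoblasts, and 7.10, 1.92 and 12.1 CPM in bulk myoblasts. Its log2 fold change over bulk myoblasts was 6.23 ± 0.63 in bulk MPC and 3.08 ± 0.56 in differentiated myoblasts (adjusted p = 4.09e-06 and 0.000466, edgeR), and 6.85 and 3.70 without bulk myoblast replicate 3. Myoz2, the form of slow and cardiac muscle, rose by 2.69 ± 0.42 in bulk MPC and by 2.30 ± 0.42 in differentiated myoblasts. Myoz3 also rose, with 18.2, 15.4 and 34.2 CPM in bulk MPC, 6.30, 11.2 and 9.78 CPM in differentiated myoblasts, and 0.502, 0.144 and 0.787 CPM in bulk myoblasts.

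The other Z-disc genes outside the PDZ-LIM genes Pdlim3, Pdlim5 and Pdlim7 rose in both cultures. Myot (myotilin, an actin-bundling protein) rose by 3.86 ± 0.50 in bulk MPC and by 2.14 ± 0.47 in differentiated myoblasts on the log2 scale. Tcap, the titin cap, rose by 1.06 ± 0.23 and 2.37 ± 0.24, Csrp3 (muscle LIM protein) by 1.68 ± 0.27 and 1.33 ± 0.27, and Ldb3, a PDZ-LIM protein, by 1.93 ± 0.22 and 1.35 ± 0.22, with bulk MPC first each time. Synpo2 (myopodin) rose by 2.39 ± 0.26 and 1.67 ± 0.25, Nrap, a protein of nascent myofibrils, by 1.64 ± 0.24 and 0.95 ± 0.24, and the Xin-repeat genes Xirp1 and Xirp2 by 1.10 and 2.67 in bulk MPC and by 1.24 and 2.59 in differentiated myoblasts. Flnc, the muscle filamin, rose by 0.60 ± 0.19 and 1.02 ± 0.19. The Flnc call in bulk MPC was lost without bulk myoblast replicate 2 (0.51, adjusted p = 0.0676, edgeR).

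The PDZ-LIM family did not move as 1 unit. Pdlim3 rose by 1.57 ± 0.29 in bulk MPC and by 1.20 ± 0.28 in differentiated myoblasts, and Pdlim5 by 1.44 ± 0.13 and 1.11 ± 0.13. Pdlim7 was the only member lower in bulk MPC, at 100, 94.0 and 87.9 CPM in bulk MPC against 135, 144 and 156 CPM in bulk myoblasts. The groups did not overlap (log2 fold change -0.62 ± 0.13, adjusted p = 0.000908, edgeR). Counts scaled for transcript length gave no member a lower call.

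Thin-filament genes rose together in both cultures. Neb, the nebulin ruler of the thin filament, rose by 1.51 ± 0.33 in bulk MPC and by 1.82 ± 0.33 in differentiated myoblasts. The leiomodins Lmod2 and Lmod3, which nucleate and lengthen thin filaments, rose by 1.89 and 0.82 in bulk MPC and by 2.18 and 1.46 in differentiated myoblasts. Klhl40 and Klhl41, kelch proteins that stabilise nebulin and leiomodin 3, rose by 1.5 and 2.00 in bulk MPC and by 1.83 and 1.97 in differentiated myoblasts.

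The pointed-end cappers of the tropomodulin family split. Tmod4, the form of skeletal muscle, had 131, 131 and 152 CPM in bulk MPC, 7.49, 9.10 and 8.43 CPM in differentiated myoblasts, and 3.25, 0.622 and 3.90 CPM in bulk myoblasts. Bulk MPC stood apart from both other groups, with a log2 fold change over bulk myoblasts of 5.69 ± 0.58 (adjusted p = 4.2e-06, edgeR). In differentiated myoblasts the change was 1.65 ± 0.53 (adjusted p = 0.0181, edgeR), and that call was lost without bulk myoblast replicate 2 (1.22, adjusted p = 0.0513, edgeR). Tmod1 rose by 2.59 ± 0.33 in bulk MPC and by 2.48 ± 0.32 in differentiated myoblasts.

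Assembly and turnover genes moved least. Trim63 (MuRF1, a ubiquitin ligase of the sarcomere) rose by 1.34 ± 0.30 in bulk MPC and by 1.42 ± 0.30 in differentiated myoblasts, and Unc45b, a myosin chaperone, by 0.94 ± 0.32 and 1.32 ± 0.33. The Unc45b call in bulk MPC was lost without bulk MPC replicate 3 or without bulk myoblast replicate 1 or 2 (0.73 to 0.95, adjusted p = 0.0592 to 0.102, edgeR). Capn3, the muscle calpain bound to titin, had 135, 120 and 139 CPM in bulk MPC, 375, 344 and 375 CPM in differentiated myoblasts, and 78.9, 56.1 and 119 CPM in bulk myoblasts. It rose in differentiated myoblasts (2.10 ± 0.33, adjusted p = 0.000158, edgeR), while in bulk MPC it had a log2 fold change of 0.63 ± 0.32 (adjusted p = 0.107, edgeR) that was called without bulk myoblast replicate 3 (0.95, adjusted p = 0.0295, edgeR). Trim54, Trim55 and Smyd1 had log2 fold changes of 0.02, 0.23 and -0.12 in bulk MPC, none of them called.

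**Figure D2:**
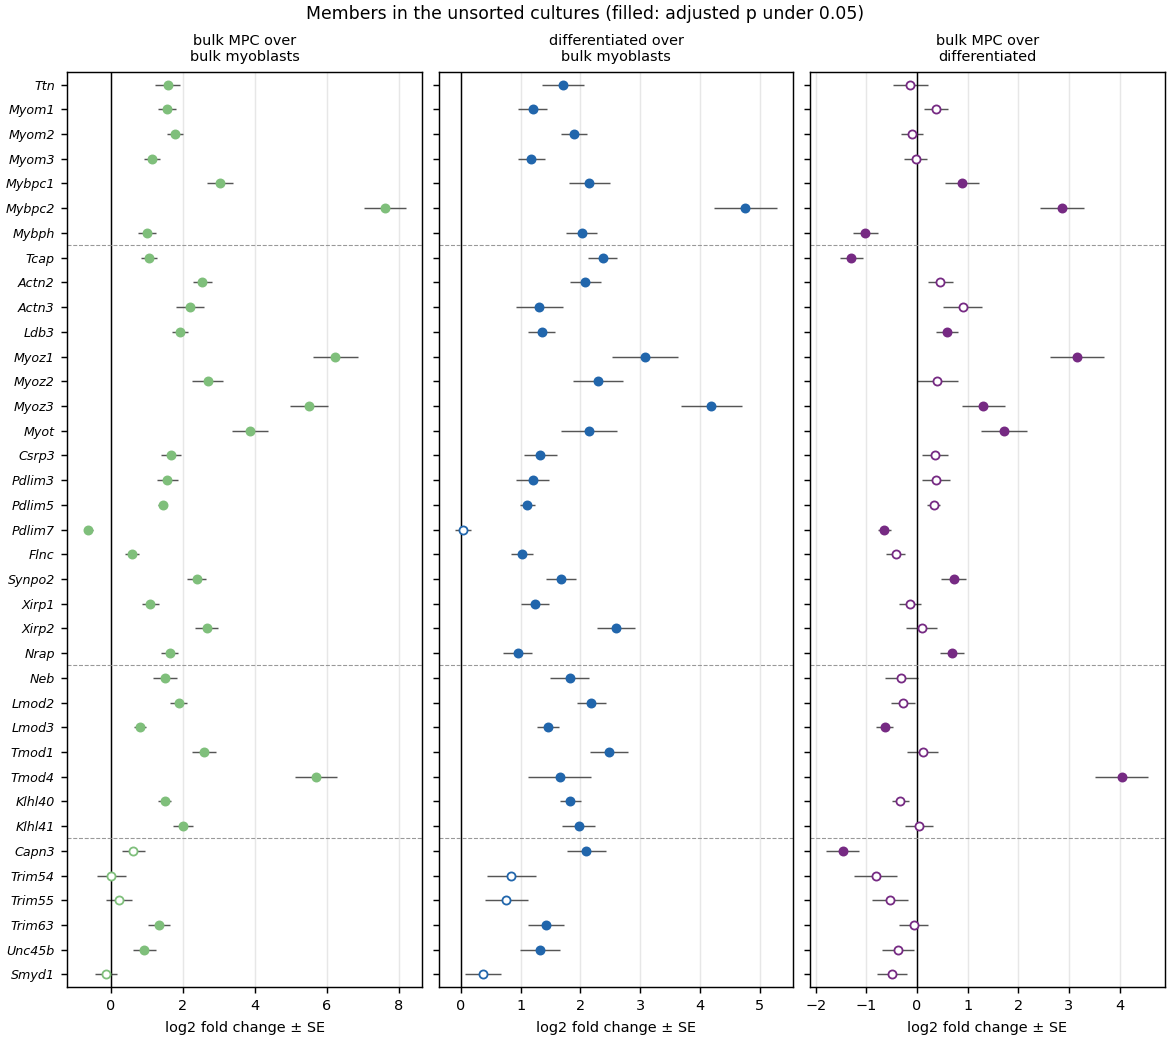
Log2 fold changes (points) with their standard errors (bars) of the 37 genes for bulk MPC over bulk myoblasts, differentiated over bulk myoblasts, and bulk MPC over differentiated myoblasts; filled points had an adjusted p under 0.05 (edgeR) and dashed lines separate the 4 role groups. The thick-filament, Z-disc and thin-filament genes lie right of 0 in the first 2 panels except Pdlim7 in the first (-0.62), and Tmod4, Myoz1 and Mybpc2 lie farthest right in the third.

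A direct comparison of bulk MPC with differentiated myoblasts asked whether the 2 muscle-forming cultures differ in these genes. In bulk MPC 9 members were higher and 5 were lower than in differentiated myoblasts, where 24.4% of all tested genes were called higher and 19.4% lower. The median log2 difference was 0.04, against 0.07 over all tested genes. In this fit the members' calls were therefore no more frequent than those of all genes, while fitting only the compared groups called more members lower (given below). Of the calls, 3 were large. Tmod4 was higher in bulk MPC by 4.04 ± 0.53 (adjusted p = 6.53e-05, edgeR), Myoz1 by 3.16 ± 0.54 (adjusted p = 0.000484, edgeR) and Mybpc2 by 2.86 ± 0.44 (adjusted p = 0.000373, edgeR).

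Myot was also higher in bulk MPC, with 572, 402 and 509 CPM in bulk MPC against 135, 153 and 162 CPM in differentiated myoblasts (1.72 ± 0.46, adjusted p = 0.00831, edgeR). Lower in bulk MPC were Capn3 (-1.47 ± 0.32), Tcap (-1.30 ± 0.23), Mybph (-1.02 ± 0.25), Pdlim7 (-0.65 ± 0.13) and Lmod3 (-0.64 ± 0.17). Their adjusted p-values lay between 0.000536 and 0.0089 (edgeR). Tcap had 103, 95 and 99.7 CPM in bulk MPC against 257, 247 and 232 CPM in differentiated myoblasts. For each of these 6 genes the libraries of one culture lay entirely above those of the other.

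A further 5 calls higher in bulk MPC were smaller and did not hold when single libraries were left out. They were Myoz3 (1.31 ± 0.42), Mybpc1 (0.89 ± 0.34), Synpo2 (0.72 ± 0.25), Nrap (0.69 ± 0.24) and Ldb3 (0.59 ± 0.22). Mybpc1 lost its call when any 1 of the 6 libraries was left out (0.75 to 1.00, adjusted p = 0.0524 to 0.134, edgeR). Ldb3 (0.49 to 0.62) and Nrap (0.58 to 0.70) lost theirs without any 1 of 5 of them, Synpo2 (0.56 to 0.77) without bulk MPC replicate 1 or any differentiated replicate, and Myoz3 (0.89 to 1.36) without bulk MPC replicate 3 or differentiated replicate 1 or 3. With a replicate block Mybpc1 and Ldb3 had adjusted p-values of 0.0568 and 0.0588 (edgeR). Fibroblast markers summed to 75.3, 846 and 133 CPM in bulk MPC and to 32.1 to 99.8 CPM in differentiated myoblasts. Bulk MPC replicate 2, the library with 846 CPM, was the lowest of its group for 29 of the 37 genes. Without it the same numbers of members were called, 9 higher and 5 lower.

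The central comparison asked how GFP+ cells of MPC cultures differ from GFP+ cells of myoblast cultures, both sorted and extracted in the same way. Most sarcomere genes were higher in GFP+ MPC, from a very low level. In GFP+ MPC 24 members rose and 8 fell (edgeR), where 26% of all tested genes were called higher and 22.7% lower. The share of members that fell was near that of all tested genes. The median log2 fold change was 1.48, against 0.09 over all tested genes. By role, 5 thick-filament and M-band genes rose and 1 fell, 12 Z-disc genes rose and 3 fell, 4 thin-filament genes rose and 1 fell, and 3 assembly and turnover genes rose and 3 fell. GFP+ MPC replicate 2 was the highest of its group for 33 of the 37 genes, and without it 18 members were called higher and 10 lower. Ckm, of differentiated cells, also averaged more in GFP+ MPC than in GFP+ myoblasts (values above). Of 8 myogenic markers tested, 3 were called higher and 2 lower. The part of differentiated cells in the members' difference was not tested. The fibroblast markers, of which Lum was at 0 in both groups, summed to 1010 to 1530 CPM in GFP+ MPC and 585 to 890 CPM in GFP+ myoblasts. They did not move as 1 set: of 6 tested, Dcn (7.59 ± 2.53) and Thy1 (3.81 ± 0.88) were called higher, Pdgfra (-2.64 ± 1.0) lower, and 3 had no call. The part of the fibroblast markers in the members' difference was not tested.

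**Figure D3:**
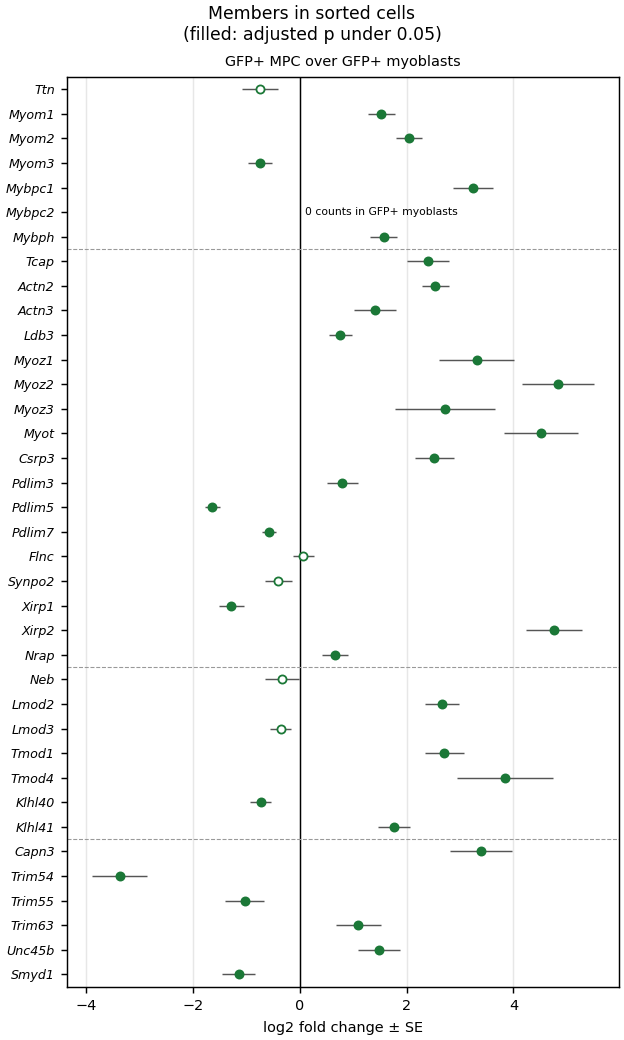
Log2 fold changes (points) with their standard errors (bars) of 36 of the genes for GFP+ MPC over GFP+ myoblasts; filled points had an adjusted p under 0.05 (edgeR), dashed lines separate the 4 role groups, and Mybpc2 is left out for having 0 counts in GFP+ myoblasts. Myoz2 (4.83) and Xirp2 (4.76) lie farthest right and Trim54 (-3.37) farthest left.

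Thick-filament and M-band genes showed both directions. Mybpc2 had 2.72, 1.81 and 0.355 CPM in GFP+ MPC, 112 counts in all, and 0 counts in the 3 GFP+ myoblast libraries. Set against a floor of 3 counts over the GFP+ myoblast group, it was at least 41.7-fold higher in GFP+ MPC. Mybpc1 had 47.7, 74.5 and 26.6 CPM in GFP+ MPC against 6.53, 5.16 and 3.95 CPM in GFP+ myoblasts (3.24 ± 0.38, adjusted p = 1.78e-05, edgeR), with no overlap. Myom1, Myom2 and Mybph rose by 1.53, 2.04 and 1.57.

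The third myomesin and titin did not follow. Myom3 had 17.2, 30.7 and 16.3 CPM in GFP+ MPC against 41.5, 37 and 28.5 CPM in GFP+ myoblasts. Its log2 fold change was -0.74 ± 0.22 (adjusted p = 0.0152, edgeR), and the call was lost without GFP+ MPC replicate 1 or 3 or GFP+ myoblast replicate 1 (-0.62 to -0.58, adjusted p = 0.0613 to 0.063, edgeR). Ttn had 105, 216 and 140 CPM in GFP+ MPC against 322, 282 and 172 CPM in GFP+ myoblasts. The groups overlapped and the difference was not called (-0.75 ± 0.34, adjusted p = 0.0864, edgeR), but without GFP+ MPC replicate 2 or GFP+ myoblast replicate 3 it was (-1.08 and -0.98, adjusted p = 0.0299 and 0.0372, edgeR).

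At the Z-disc, the genes with the largest rises were near the limit of detection in GFP+ myoblasts. Myoz2 had 2.09, 10.9 and 5.60 CPM in GFP+ MPC against 0.25, 0.19 and 0.19 CPM in GFP+ myoblasts (4.83 ± 0.67, adjusted p = 7.16e-05, edgeR). Xirp2 had 4.44, 7.17 and 4.14 CPM in GFP+ MPC against 0.219, 0.114 and 0.238 CPM in GFP+ myoblasts (4.76 ± 0.53, adjusted p = 1.05e-05, edgeR). Myot had 6.94, 14.9 and 3.23 CPM in GFP+ MPC against 0.25, 0.19 and 0.714 CPM in GFP+ myoblasts (4.52 ± 0.69, adjusted p = 0.000144, edgeR). For all 3 genes every GFP+ MPC library lay above every GFP+ myoblast library. Myoz1 rose by 3.31 ± 0.70. Without GFP+ MPC replicate 2 the values were 4.15 for Myoz2, 3.80 for Myot and 2.62 for Myoz1, and without GFP+ myoblast replicate 3 that of Myot was 5.19. Myoz3 rested on 20 counts in GFP+ MPC and 3 in GFP+ myoblasts, a ratio of 7.44 (95% counting interval 2.21 to 39.1), and its call (adjusted p = 0.0288, edgeR) was lost without GFP+ MPC replicate 1 or 2 or GFP+ myoblast replicate 1 or 2 (adjusted p = 0.0654 to 0.11, edgeR).

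Actn2 had 68.2, 121 and 64.3 CPM in GFP+ MPC against 16.6, 14.3 and 12.5 CPM in GFP+ myoblasts (2.54 ± 0.26, adjusted p = 6.19e-06, edgeR). This was the same log2 fold change as between the unsorted cultures. Tcap and Csrp3 rose by 2.40 ± 0.39 and 2.52 ± 0.36. Actn3 (1.41 ± 0.39), Ldb3 (0.76 ± 0.22), Pdlim3 (0.80 ± 0.29) and Nrap (0.66 ± 0.25) were called higher, each with a library whose removal ended the call. Without GFP+ MPC replicate 2, Actn3 had a log2 fold change of 0.60 (adjusted p = 0.0531, edgeR) and Ldb3 of 0.37 (adjusted p = 0.0654, edgeR). Pdlim3 lost its call without GFP+ MPC replicate 2 or GFP+ myoblast replicate 3 (0.43 to 0.49, adjusted p = 0.112 to 0.229, edgeR), and Nrap without GFP+ MPC replicate 2 or 3 or GFP+ myoblast replicate 1 or 3 (0.43 to 0.76, adjusted p = 0.0527 to 0.192, edgeR). With a replicate block Nrap had an adjusted p of 0.0576 (edgeR).

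The Z-disc genes that fell were Pdlim5, Pdlim7 and Xirp1. Pdlim5 had 19.2, 25 and 20.9 CPM in GFP+ MPC against 67.0, 64.5 and 71.1 CPM in GFP+ myoblasts (-1.64 ± 0.14, adjusted p = 9.89e-07, edgeR). Xirp1 had 4.49, 8.85 and 10.3 CPM in GFP+ MPC against 17.7, 17.0 and 23.0 CPM in GFP+ myoblasts (-1.28 ± 0.24, adjusted p = 0.000703, edgeR). Pdlim7 had 80.2, 69.4 and 78.9 CPM in GFP+ MPC against 122, 131 and 88.2 CPM in GFP+ myoblasts (-0.58 ± 0.13, adjusted p = 0.00197, edgeR). None of the 3 overlapped between groups. The 2 Xin-repeat genes thus changed in opposite directions. Flnc (0.07 ± 0.19) and Synpo2 (-0.40 ± 0.25) had no call, but Synpo2 was called without GFP+ myoblast replicate 3 (-0.62, adjusted p = 0.0471, edgeR).

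Among thin-filament genes, Tmod4 had 2.40, 2.78 and 0.592 CPM in GFP+ MPC against 0, 0.0759 and 0.381 CPM in GFP+ myoblasts (3.84 ± 0.90, adjusted p = 0.0032, edgeR). Its value depended on the GFP+ myoblast libraries, at 3.12 without replicate 1 and 5.58 without replicate 3. Tmod1, Lmod2 and Klhl41 rose by 2.71 ± 0.36, 2.67 ± 0.32 and 1.77 ± 0.30. Klhl40 fell by 0.73 on the log2 scale, with 3.76, 5.23 and 3.47 CPM in GFP+ MPC against 7.68, 6.60 and 6.33 CPM in GFP+ myoblasts (adjusted p = 0.00794, edgeR). Neb (-0.33 ± 0.32) and Lmod3 (-0.36 ± 0.19, adjusted p = 0.131, edgeR) had no call. Lmod3 was called lower without GFP+ MPC replicate 2 (-0.61, adjusted p = 0.0128, edgeR).

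Assembly and turnover genes divided evenly. Capn3 had 1.22, 4.01 and 1.97 CPM in GFP+ MPC against 0.406, 0.0379 and 0.19 CPM in GFP+ myoblasts (3.39 ± 0.58, adjusted p = 0.000376, edgeR), and 4.43 without GFP+ myoblast replicate 1. Unc45b rose by 1.48 ± 0.39, or 0.89 without GFP+ MPC replicate 2. Trim63 (1.10 ± 0.43, adjusted p = 0.0466, edgeR) lost its call without GFP+ MPC replicate 2 or 3 or any GFP+ myoblast replicate (0.59 to 1.29, adjusted p = 0.0579 to 0.29, edgeR), and had an adjusted p of 0.0687 with a replicate block.

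The other 2 MuRF-family ligases fell. Trim54 (MuRF3, which also binds microtubules) had 1.09, 2.40 and 1.34 CPM in GFP+ MPC against 19.4, 26.1 and 4.28 CPM in GFP+ myoblasts, with no overlap (-3.37 ± 0.51, adjusted p = 0.000141, edgeR). Trim55 (MuRF2) had 12.5, 49.9 and 22.8 CPM in GFP+ MPC against 65.3, 71.9 and 37.2 CPM in GFP+ myoblasts. Its groups overlapped, the log2 fold change was -1.03 ± 0.37 (adjusted p = 0.0335, edgeR), -1.72 without GFP+ MPC replicate 2, and the call was lost without GFP+ MPC replicate 1 or 3 or GFP+ myoblast replicate 1 or 2 (-0.95 to -0.68, adjusted p = 0.0893 to 0.114, edgeR). Smyd1, a methyltransferase that works with Unc45b on myosin folding, had 21.4, 67.1 and 40.5 CPM in GFP+ MPC against 90.2, 85.1 and 110 CPM in GFP+ myoblasts (-1.14 ± 0.31, adjusted p = 0.00789, edgeR).

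GFP+ cells were then set against unsorted cultures of the same kind. In myoblasts the groups also differed in passage, 5 to 6 for GFP+ cells and 3 for bulk cells. In GFP+ MPC all 37 members were lower than in bulk MPC (edgeR), where 33.7% of all tested genes were called lower and 32.9% higher, and the median log2 fold change was -5.71, against -0.01 over all tested genes. In GFP+ myoblasts 36 members were lower than in bulk myoblasts, where 17.4% of all tested genes were called lower and 12.7% higher, and the median was -4.91, against -0.02. Markers of differentiating cells were also lower: Myog had log2 fold changes of -3.19 in GFP+ MPC and -3.54 in GFP+ myoblasts, and Ckm of -6.09 and -7.38. The part of such cells in the members' difference was not tested.

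The remaining level was similar for most genes in MPC and uneven in myoblasts. Each sorted library was set against the mean of the 3 unsorted libraries of its kind. The median gene stood at 1.52, 2.90 and 1.67% of the bulk MPC mean in GFP+ MPC. In GFP+ myoblasts it stood at 3.23, 3.53 and 3.00% of the bulk myoblast mean. In MPC 25 of the 37 log2 fold changes lay within 0.5 of their median, with an SD over genes of 1.33. In myoblasts 6 of the 37 did, with an SD of 2.15. Pdlim7 kept most of its level, at 85.4, 73.8 and 84.0% in GFP+ MPC. Its call there (-0.30 ± 0.13, adjusted p = 0.0474, edgeR) was lost without any 1 of the 6 libraries (-0.35 to -0.23) and with a replicate block (adjusted p = 0.0649, edgeR). In GFP+ myoblasts Pdlim7 had no call (-0.34 ± 0.13, adjusted p = 0.0535, edgeR) except without GFP+ myoblast replicate 2 (-0.46). Flnc was lower by -2.30 ± 0.20 in GFP+ MPC and -1.77 ± 0.20 in GFP+ myoblasts.

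**Figure D4:**
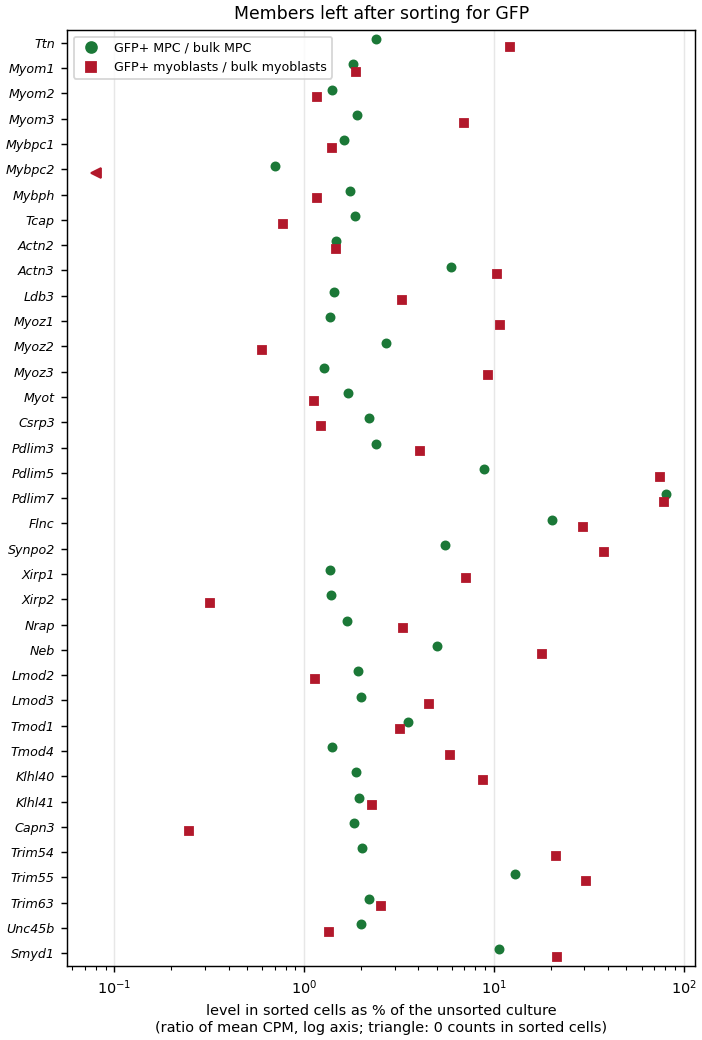
Mean CPM in sorted cells as a percentage of the unsorted culture (log axis) for each gene, as circles for GFP+ MPC over bulk MPC and squares for GFP+ myoblasts over bulk myoblasts; the triangle marks Mybpc2, with 0 counts in GFP+ myoblasts. Most circles lie close together (25 of 37 log2 fold changes within 0.5 of their median), while the squares are spread, from Capn3 at the low end to Pdlim7 and Pdlim5 at the high end.

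The difference between the 2 sort effects, which includes the passage difference between GFP+ and bulk myoblasts, was itself tested. It was called for 15 members, 3 with a smaller loss in GFP+ MPC and 12 with a larger one, where 20.3% of all tested genes were called higher and 16.8% lower. The median was -0.53, against 0.09 over all tested genes. Larger losses in GFP+ MPC were led by Trim54 (-3.39 ± 0.65), Pdlim5 (-3.08 ± 0.19), Myoz1 (-2.92 ± 0.95), Synpo2 (-2.79 ± 0.36), Xirp1 (-2.39 ± 0.33), Ttn (-2.33 ± 0.49) and Klhl40 (-2.23 ± 0.26). The Myoz1 difference was lost without GFP+ myoblast replicate 1 or 3 (-3.01 to -2.45). Pdlim5 is the clearest case by gene counts. It was at 289, 213 and 234 CPM in bulk MPC, far above the 19.2 to 25 CPM of GFP+ MPC, while in bulk myoblasts it had 93.2, 88.0 and 90.1 CPM, nearer to the 64.5 to 71.1 CPM of GFP+ myoblasts. On the TPM scale Pdlim5 averaged 210 ± 20.9 in bulk MPC and 15.9 ± 5.09 in GFP+ MPC. In bulk myoblasts it averaged 88.9 ± 4.05 TPM and in GFP+ myoblasts 48.3 ± 5.98 TPM (SD, n = 3 each). Its small sort effect in myoblasts (-0.42 ± 0.13, adjusted p = 0.0277, edgeR) was lost without any 1 of 5 of the 6 libraries (-0.44 to -0.39). Capn3 (2.76 ± 0.69), Xirp2 (2.08 ± 0.67) and Tcap (1.34 ± 0.46) went the other way, with the deeper loss in GFP+ myoblasts: Capn3 by -8.53 ± 0.52 and Xirp2 by -8.26 ± 0.50. The Xirp2 difference was lost without GFP+ MPC replicate 2 or GFP+ myoblast replicate 1 or 2 (1.79 to 2.23), and that of Tcap without any 1 of 8 of the 12 libraries (1.03 to 1.36). Without GFP+ MPC replicate 2 the difference was called higher for 1 member and lower for 17.

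Some of these sort effects depended on single libraries. In myoblasts, Mybpc2 was at least 31.6-fold lower in GFP+ than in bulk cells, and Myoz3 fell 13.5-fold on 3 counts against 40 (95% counting interval 4.28 to 68.0). Without GFP+ myoblast replicate 1 the log2 fold changes of Capn3, Tmod4 and Myoz3 were -9.57, -3.60 and -2.85. Without GFP+ myoblast replicate 3 those of Tmod4, Myot and Myoz3 were -6.06, -7.22 and -4.47, and without bulk myoblast replicate 3 that of Myoz1 was -2.65. In MPC, leaving out GFP+ MPC replicate 2 gave -4.87 for Actn3, -6.61 for Myot, -6.89 for Myoz1, -5.87 for Myoz2, -3.64 for Trim55 and -6.24 for Unc45b. The part of the removed cells and of the extraction kit in these effects cannot be told apart, nor, in myoblasts, that of passage number.

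Within paralog families, the balance on the TPM scale differed between groups. Myoz1 made up 51.2 ± 19.5% of the summed calsarcin TPM in GFP+ MPC, 66.2 ± 3.18% in bulk MPC, 23.6 ± 7.27% in differentiated myoblasts, 66.1 ± 15.6% in GFP+ myoblasts and 12.3 ± 5.48% in bulk myoblasts (SD, n = 3 each). Tmod4 made up 35.1 ± 2.93% of the summed Tmod1 and Tmod4 TPM in bulk MPC, against 3.55 ± 0.490% in differentiated myoblasts. Both genes are the fast or skeletal form of their family, and both held a larger share in bulk MPC than in either other unsorted group. Xirp2 made up 31.7 ± 9.57% of the Xin-repeat TPM in GFP+ MPC and 30 ± 3.86% in bulk MPC, against 0.703 ± 0.203% in GFP+ myoblasts and 13.0 ± 2.50% in bulk myoblasts.

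Some families were balanced otherwise in GFP+ myoblasts than in the other 4 groups. Lmod3 made up 55.8% of leiomodin TPM on average in GFP+ MPC and 90.9 ± 2.75% in GFP+ myoblasts, Klhl40 made up 17.3 ± 3.13% of kelch TPM in GFP+ MPC and 53.8 ± 5.33% in GFP+ myoblasts, and Myom3 made up 28.5 ± 1.96% of myomesin TPM in GFP+ MPC and 70.3 ± 3.03% in GFP+ myoblasts. In each case the GFP+ MPC share was closer to the shares of the unsorted cultures: for Myom3 these were 27.2 ± 1.09% in bulk MPC, 27.9 ± 0.771% in differentiated myoblasts and 35.9 ± 2.54% in bulk myoblasts. With 3 libraries against 3, an exact two-sided permutation test cannot go below p = 0.1. Over 144 such share comparisons 105 reached that value, and the smallest Benjamini-Hochberg adjusted value was 0.137, so no share difference passed a threshold of 0.05.

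Transcript shares of Flnc differed between sorted and unsorted libraries. The gene's total was spread over 2 main transcripts that differ by a single 99-base coding segment of 33 codons, present in Flnc-201 and missing from Flnc-202. The segment is bases 5389 to 5487 of Flnc-201 on chromosome 6 (GENCODE M21, GRCm38). It is shown because the share of Flnc-201 in the gene's counts separated sorted from unsorted libraries.
Flnc-201 segment: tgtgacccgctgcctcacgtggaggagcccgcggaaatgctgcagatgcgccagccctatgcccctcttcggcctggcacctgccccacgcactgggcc

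Flnc-201 held 65.6, 75.1 and 67.6% of the gene's estimated counts in GFP+ MPC, 4.72, 8.37 and 5.38% in bulk MPC, 4.66, 6.03 and 6.01% in differentiated myoblasts, 83.8, 85.0 and 88.2% in GFP+ myoblasts, and 21.6, 28.9 and 24.9% in bulk myoblasts. The sorted libraries were all above the unsorted ones. Most of the difference lay in the form without the segment. Flnc-202 averaged 204 ± 35.9 CPM in GFP+ MPC and 3200 ± 300 CPM in bulk MPC, and 93.7 ± 15.8 CPM in GFP+ myoblasts and 1690 ± 239 CPM in bulk myoblasts. Flnc-201 averaged 491 ± 216 CPM in GFP+ MPC and 213 ± 83.2 CPM in bulk MPC, and 566 ± 8.77 CPM in GFP+ myoblasts and 562 ± 57.9 CPM in bulk myoblasts (SD, n = 3 each).

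Pdlim5 split in a similar way. Pdlim5-201, of 591 codons, held 67.1, 43.0 and 66.2% of the gene's counts in GFP+ MPC, 2.59, 5.33 and 2.71% in bulk MPC, 1.72, 3.03 and 3.47% in differentiated myoblasts, 61.3, 58.0 and 75.8% in GFP+ myoblasts, and 29.3, 31.3 and 25.5% in bulk myoblasts. The short Pdlim5-203, of 214 codons, held 24.4, 26.4 and 18.0% in GFP+ MPC and 80.8, 75.9 and 78.3% in bulk MPC. It held 72.6, 72.2 and 69.7% in differentiated myoblasts, 0.034, 5.35 and 6.60% in GFP+ myoblasts, and 33.2, 20.4 and 31.4% in bulk myoblasts. By estimated counts, which grow with transcript length, the long form led in sorted cells and the short form in bulk MPC and differentiated myoblasts. Pdlim5-201 has 5016 bases and Pdlim5-203 has 1722, and the shares were not corrected for this. Pdlim5-201 averaged 12.5 ± 1.58 CPM in GFP+ MPC against 44.1 ± 8.66 CPM in GFP+ myoblasts. Single-end reads limit how well transcripts of 1 gene can be separated, and these shares were not tested.

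**Figure D5:**
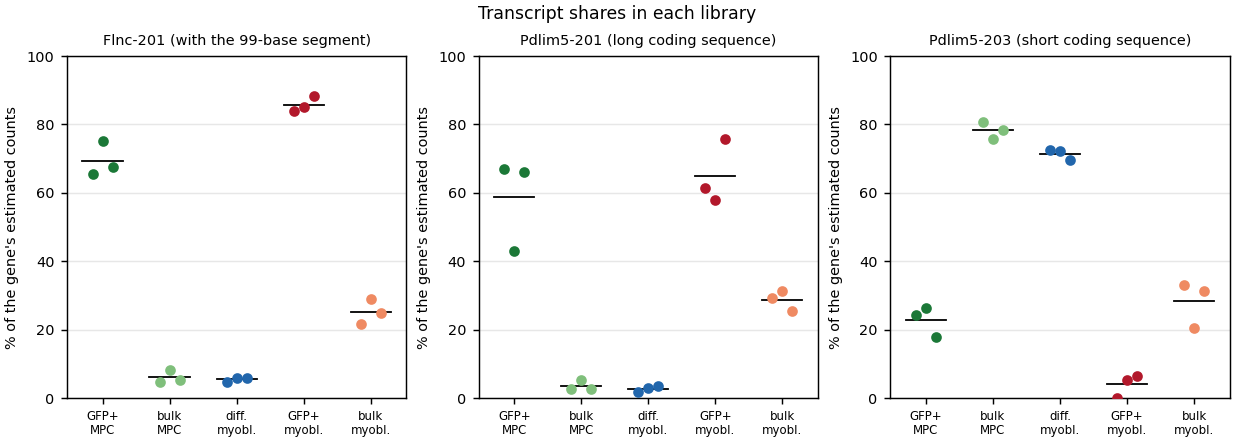
Share of the gene's estimated counts (%) held by Flnc-201, Pdlim5-201 and Pdlim5-203 in each library of the 5 groups (points, 1 per library). Flnc-201 lies between 65.6 and 88.2% in the sorted libraries and between 4.66 and 28.9% in the unsorted ones.

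Other genes of the same structures were described from 3 further lists. Over all tested genes, 26% were called higher and 22.7% lower in GFP+ MPC against GFP+ myoblasts. The shares were 28.4 and 30.1% in bulk MPC against bulk myoblasts, and 25.6 and 28.6% in differentiated against bulk myoblasts. Of 22 contractile filament genes tested (myosins, actins, troponins and tropomyosins), 15 rose and 3 fell in GFP+ MPC against GFP+ myoblasts, 16 rose and 2 fell in bulk MPC against bulk myoblasts, and 19 rose and 1 fell in differentiated against bulk myoblasts. In bulk MPC against differentiated myoblasts 2 of the 22 were higher and 6 lower. Of all tested genes, 24.4% were called higher and 19.4% lower there. Myh4, the myosin heavy chain of the fastest fibres, averaged 5230 ± 745 CPM in bulk MPC against 800 ± 304 CPM in differentiated myoblasts (2.71 ± 0.69, adjusted p = 0.00627, edgeR). Lower in bulk MPC were Myl2 and Myh7, the regulatory light chain and heavy chain of slow and cardiac muscle, and Myh2, a fast myosin heavy chain, with log2 fold changes of -4.57 ± 0.43, -3.18 ± 0.33 and -2.56 ± 0.60 (adjusted p = 6.04e-06, 1.17e-05 and 0.00379, edgeR). Without differentiated replicate 3 the Myh2 value was -1.64. Of 23 other sarcomere-linked genes tested, 5 rose and 12 fell in GFP+ MPC against GFP+ myoblasts, 12 rose and 3 fell in bulk MPC against bulk myoblasts, and 16 rose and 2 fell in differentiated against bulk myoblasts. Ankrd1, a stretch-responsive titin-binding protein, averaged 27.7 ± 12.9 CPM in GFP+ MPC against 899 ± 71.0 CPM in GFP+ myoblasts (-5.02 ± 0.38, adjusted p = 4.13e-07, edgeR), and Synpo2l, a relative of Synpo2, 32.7 ± 10.6 CPM against 276 ± 60.7 CPM (-3.08 ± 0.24).

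Among the non-muscle relatives of the members, more fell than rose in both unsorted comparisons. Of 18 tested, 3 rose, 9 fell and 6 had no call in bulk MPC against bulk myoblasts, where 30.1% of all tested genes were called lower. In differentiated against bulk myoblasts 2 rose, 11 fell and 5 had no call, where 28.6% of all tested genes were called lower. Flna, the general filamin, averaged 152 ± 81.2 CPM in bulk MPC against 1510 ± 318 CPM in bulk myoblasts (-3.31 ± 0.34, adjusted p = 4.77e-06, edgeR), and Actn1, the non-muscle alpha-actinin, 59.8 ± 21.5 CPM against 357 ± 9.64 CPM (-2.58 ± 0.19, adjusted p = 4.03e-07, edgeR). In GFP+ MPC against GFP+ myoblasts 3 of the 18 rose and 9 fell, where 26% of all tested genes were called higher and 22.7% lower.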

How the data were processed

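Gene expression was measured by single-end, stranded mRNA sequencing in 16 libraries. The deposited tables list, per transcript, an estimated count and a TPM. The authors made the estimated count and the TPM values with kallisto 0.46.1 after fastp 0.20.0, per the submitters' processing notes, which name GRCm39. Other columns of the deposited tables are transcript lengths.

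Of 121798 transcripts, 120739 were matched to GENCODE M21 for gene names. The other 1059 held 0.478 to 1.05% of the counts. Estimated counts were summed per gene and rounded. Genes were filtered with filterByExpr (minimum count 10, minimum total 15), scaled with TMM, and tested with edgeR 4.0.16 (quasi-likelihood) in R 4.3.3, in 1 model of the 15 replicated libraries with a term per group and 10 residual degrees of freedom. The p-values were adjusted by Benjamini-Hochberg over 15533 genes, with a threshold of 0.05. Normalised counts are CPM on TMM library sizes. The test was checked on simulated data. Library totals of 19300307 to 29127963 set the precision, and counting intervals and floors cover counting error only.

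All 37 genes may be named. From each other list, up to 4 genes per comparison are named, those with the largest called change that goes the same way in all 3 same-numbered pairs, and the myogenic markers always. The members and lists were chosen with earlier results of these data known. Replicate numbers, and a leading number in the library names, are shared by the labels of all groups. Deviations of same-numbered libraries correlated over 0.1 in every pair only for bulk MPC with bulk myoblasts (0.159, 0.18 and 0.201), where a replicate block changed neither count of members. No 2 libraries agreed within sampling noise. Alternatives were RLE scaling, DESeq2 1.42.0, length-scaled counts, no filter, only the compared groups, a replicate block, and each library left out.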

Additional observations from a re-analysis of the deposited data

Results flagged for a closer look

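The effect of sorting differed between MPC and myoblast cultures, by a test of the difference itself (edgeR interaction, Benjamini-Hochberg adjusted over all tested genes), for 15 of the 37 genes. Values are the log2 fold change of GFP+ over bulk MPC minus that of GFP+ over bulk myoblasts. GFP+ and bulk myoblasts also differed in passage, so sorting and passage cannot be told apart in these values. The loss was larger in GFP+ MPC for Trim54 (-3.39, adjusted p = 0.00149), Pdlim5 (-3.08, adjusted p = 6.18e-07), Myoz1 (-2.92, adjusted p = 0.0272), Synpo2 (-2.79, adjusted p = 0.000102) and Xirp1 (-2.39, adjusted p = 0.000166). It was also larger there for Ttn (-2.33, adjusted p = 0.00239), Klhl40 (-2.23, adjusted p = 5.99e-05), Myom3 (-1.89, adjusted p = 0.000558), Neb (-1.84, adjusted p = 0.00696), Ldb3 (-1.18, adjusted p = 0.00976), Lmod3 (-1.18, adjusted p = 0.00313) and Nrap (-0.98, adjusted p = 0.0383). It was smaller in GFP+ MPC for Capn3 (2.76, adjusted p = 0.00684), Xirp2 (2.08, adjusted p = 0.0256) and Tcap (1.34, adjusted p = 0.0365).

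Leaving out 1 library ended the call for 4 of the 15: Myoz1 (without GFP+ myoblast replicate 1 or 3, -3.01 to -2.45), Nrap (8 libraries, -0.99 to -0.77, and with a replicate block, -0.97, adjusted p = 0.0598, edgeR), Tcap (8 libraries, 1.03 to 1.36) and Xirp2 (3 libraries, 1.79 to 2.23). Without GFP+ MPC replicate 2, Actn3 (-1.60), Flnc (-0.86), Pdlim3 (-1.13), Smyd1 (-1.49) and Trim55 (-1.94) were called as well, and Myoz1 stood at -3.61. Myoz1 stood at -3.54 without bulk myoblast replicate 3, and Capn3 at 3.80 without GFP+ myoblast replicate 1.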

How the results depend on the processing

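Across the alternatives, no member changed direction past the threshold. Counts of members called higher and lower stayed within 1.5 times the reported ones except as follows. Length-scaled counts gave 0 members lower in bulk MPC against bulk myoblasts. Fitting only the compared groups gave 12 members lower in bulk MPC against differentiated myoblasts. Leaving out 1 library at a time gave 4 to 9 members higher in bulk MPC against differentiated myoblasts, and 1 to 4 with a smaller sorting loss in MPC. The same removals gave 18 to 23 higher and 6 to 10 lower in GFP+ MPC against GFP+ myoblasts, and 30 to 33 higher in bulk MPC and 31 to 33 higher in differentiated myoblasts against bulk myoblasts.

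With a replicate block the counts were 22 higher and 8 lower in GFP+ MPC against GFP+ myoblasts, 32 and 1 in bulk MPC and 33 and 0 in differentiated against bulk myoblasts, 7 and 5 in bulk MPC against differentiated myoblasts, and 36 lower after either sort. The block ended 6 calls of members, each given beside its result, and changed no other. Only bulk MPC and bulk myoblasts met the correlation check of the pairing.

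Signs turned only for fibroblast markers without bulk MPC replicate 2. Over all single-library removals, the log2 fold changes in bulk MPC against bulk myoblasts ran between -1.89 and 1.54 for Pdgfra, -0.31 and 7.01 for Dcn, and -0.24 and 2.68 for Thy1. Against differentiated myoblasts they ran between -2.07 and 1.35 for Pdgfra and -0.56 and 7.52 for Dcn. In GFP+ MPC against bulk MPC they ran between -5.45 and 0.25 for Col1a1, -3.48 and 4.92 for Dcn, and -0.57 and 2.35 for Thy1. That library held most of the group's fibroblast marker counts. Genes under 1 CPM in GFP+ myoblasts, such as Mybpc2, Myoz3 and Tmod4, are limited by depth.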

Other observations

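The single library of GFP+ MPC from high-passage myoblasts came from a 39-week-old female animal, whose GFP- myoblasts at passage 8 were grown for 2 passages in MPC medium. The 37 genes took 0.172% of its counts. Of them, 26 lay within the range of the 3 GFP+ MPC libraries, 4 above it and 7 below it. Above were Tmod1 at 33.6 CPM, Trim55 at 77.4 CPM, Trim63 at 2.87 CPM and Unc45b at 10.6 CPM, against highest values in GFP+ MPC of 28.0, 49.9, 2.61 and 9.78 CPM. Below were Mybpc1, Actn3, Myoz3, Xirp2, Capn3, Nrap and Synpo2. Flnc-201 held 71.7% of its Flnc counts, inside the 65.6 to 75.1% of GFP+ MPC. With 1 library of another age, sex and passage there is no replicate check.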
